A study of Mus musculus with 15 samples.

Results

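The hmTOP-seq libraries made from 5 ng of mouse embryonic stem cell (mESC) DNA were compared with those made from 500 ng, gene by gene. The comparison rests on 4 of the 15 samples of the study, 2 technical replicates at each input, and on 19559 of 20807 autosomal protein-coding genes, those that hold at least 20 CG sites (1248 genes held fewer). hmTOP-seq places a sequencing read at single 5-hydroxymethylcytosines (5hmC): a glucosyltransferase (BGT) adds an azide-bearing glucose to 5hmC, an oligonucleotide is attached to it, and a polymerase starts copying at the tethered site. All 4 libraries came from E14TG2a cells, an mESC line grown on gelatin with LIF and fetal bovine serum. The sources used here state no genetic change or further treatment of the cells, and the labels separate the groups by input. Sequencing depth differed with it, and the number of amplification cycles of each library is not given in the sources used here. The study also holds 50 ng libraries, 6 control libraries prepared without the BGT step and 3 libraries of unmodified CGs. Since the replicates were technical and nothing states that they came from separate cultures, all p-values below measure the spread between library preparations. Genomic DNA carries no expression markers, so the cell type could not be checked in these data.

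5hmC arises when TET dioxygenases oxidize 5-methylcytosine, and its further oxidation products are excised by thymine DNA glycosylase and replaced by base excision repair. In mESCs the mark is known from gene bodies and enhancers and is scarce at CG islands of active promoters. A gene body therefore carries a level of 5hmC that can be ranked among all genes, either by reads per CG or by the share of its CGs that received at least 1 read (a covered CG).

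The 5 ng libraries placed their reads on far fewer CGs than the 500 ng libraries. Autosomal reads numbered 14713053 and 15100983 at 5 ng and 32159559 and 31577846 at 500 ng, and 57.8% to 59.3% of them lay in gene bodies. Of all autosomal CGs, 5.95% and 5.80% were covered at 5 ng, against 33.3% and 34.8% at 500 ng, so that a covered CG carried 12.1 and 12.8 reads at 5 ng but 4.74 and 4.45 at 500 ng. Reads carry no molecular identifiers, so all statements on counting error cover counting only.

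The CGs that received reads differed between the 5 ng replicates far more than their genes did. Of the 702634 gene-body CGs covered in 5 ng replicate 1, 22.6% were covered in replicate 2, and 23.3% of those of replicate 2 were covered in replicate 1. Between the 500 ng replicates the shares were 72.6% and 69.7%. At the same time 81.1% to 82.5% of the CGs covered in a 5 ng library were covered in a 500 ng library. The chance of being covered at 5 ng followed the 500 ng signal of the CG. Among CGs without a read in either 500 ng library, 1.39% and 1.37% were covered at 5 ng, whereas 23.1% and 22.5% were covered where the 2 500 ng libraries together held 11 to 20 reads, and 74.5% and 73.4% where they held at least 81. Reads per covered CG changed less along the same scale, from 10.4 to 23.6 in 5 ng replicate 1.

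4 single CGs and the 200 bp around them show this at base level. They are from the mm10 assembly, forward strand, with every CG in capitals, and the CG in the middle is the one described. The first lies in the gene with the most 500 ng reads per CG among those with at least 100 CGs. The others were chosen after their values were seen, in Tet1 and Dnmt3b as the CG with the most reads over the 4 libraries. In Mcm8 it was the CG with the most reads in a single library. All were taken among CGs whose window holds no untranslated region.
Sfi1, chr11:3146044-3146243, intron: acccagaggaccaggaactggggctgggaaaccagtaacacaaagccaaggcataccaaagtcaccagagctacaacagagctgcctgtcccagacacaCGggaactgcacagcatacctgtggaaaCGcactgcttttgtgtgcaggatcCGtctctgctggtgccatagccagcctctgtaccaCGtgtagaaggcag
Tet1, chr10:62832807-62833006, coding exon: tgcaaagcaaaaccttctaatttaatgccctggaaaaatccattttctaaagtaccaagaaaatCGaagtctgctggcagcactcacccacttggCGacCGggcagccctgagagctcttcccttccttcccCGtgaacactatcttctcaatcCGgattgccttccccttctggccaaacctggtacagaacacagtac
Dnmt3b, chr2:153660732-153660931, intron: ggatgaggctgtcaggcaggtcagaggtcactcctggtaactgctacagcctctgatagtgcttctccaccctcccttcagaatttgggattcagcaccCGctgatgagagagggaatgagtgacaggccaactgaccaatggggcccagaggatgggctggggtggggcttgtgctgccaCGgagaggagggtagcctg
Mcm8, chr2:132826677-132826876, intron: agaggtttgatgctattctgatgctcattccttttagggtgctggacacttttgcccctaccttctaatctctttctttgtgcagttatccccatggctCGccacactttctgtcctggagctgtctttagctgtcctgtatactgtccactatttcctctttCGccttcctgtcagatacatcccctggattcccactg
The middle CG of Sfi1 held 251 and 259 reads at 5 ng and 486 and 472 at 500 ng, so all 4 libraries detected it. In Tet1 the middle CG held 1 and 86 reads at 5 ng and 32 and 28 at 500 ng. Another CG of the same window, 33 bp downstream on the forward strand, held 31 and 35 reads at 500 ng and none in either 5 ng library. The Dnmt3b site held 1 and 0 reads at 5 ng against 67 and 49 at 500 ng. The Mcm8 site showed the reverse, with 0 and 58 reads at 5 ng against 1 and 2 at 500 ng. At each of these sites the 500 ng replicates were close to each other, while the 5 ng replicates parted in Tet1 and Mcm8 and both lay near 0 in Dnmt3b.

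Tet1 (chr10:62804570-62908996, 1214 CGs), which codes for the TET enzyme most typical of mESCs, shows how such sampling adds up over a gene. The 5 ng replicates covered 264 of its CGs between them, of which 48 were covered in both, while 820 were covered in either 500 ng library and 538 in both. Its level nevertheless was 1.67 and 1.88 reads per CG at 5 ng and 3.43 and 3.42 at 500 ng. Ranked within each library from 0 to 100, Tet1 stood at percentile 87.2 and 90.7 at 5 ng and at 82.6 and 83.6 at 500 ng. By the covered share of CGs it stood at 87.5 and 84.6 against 81.1 and 80.1. All 4 libraries placed it high among the genes, and both 5 ng ranks lay above both 500 ng ranks by either measure.

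**Figure D1:**
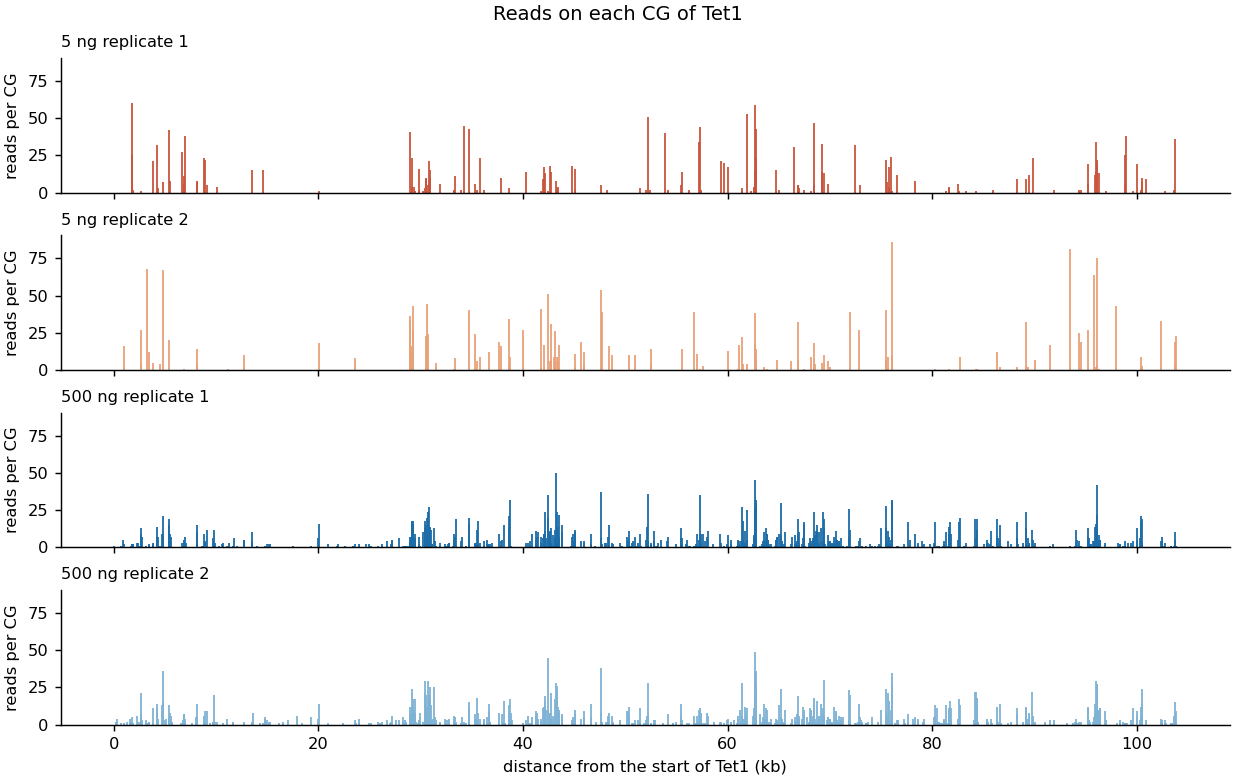
Reads on each CG of Tet1 (y axis, reads per CG) by distance from the start of the gene (x axis, kb), 1 panel for each of the 4 libraries with the same y scale. Few tall lines at 5 ng stand against many short lines at 500 ng, and the 5 ng replicates share 48 of the 264 CGs that either covered.

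Over all genes, rank was largely preserved at 5 ng, and better by covered CGs than by reads. Across the 19559 genes, Spearman's rho between a 5 ng and a 500 ng library was 0.872 on average over the 4 pairs for reads per CG, from 0.869 to 0.875, and 0.893 for the covered share. The 5 ng replicates correlated less with each other, 0.782 for reads per CG and 0.862 for the covered share, than either did with 500 ng, whereas the 500 ng replicates reached 0.990 and 0.981. Correlations are given as descriptions over genes, which share libraries and are not replicates. Summing both 5 ng libraries raised rho for reads per CG to 0.925 against the mean of the 500 ng libraries. The covered share at 5 ng had a rho of 0.919 with reads per CG at 500 ng, while a 50 ng library reached 0.973 by reads per CG.

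A gene was said to keep its rank when both 5 ng libraries placed it within 10 percentile points of its mean 500 ng percentile. By reads per CG 9249 genes did so (47.3%), and by the covered share 10127 (51.8%). Taken singly, the 5 ng libraries placed 65.7% and 64.7% of genes within 10 points by reads and 68.3% and 67.2% by covered share, with a median shift of 6.32 and 6.57 points by reads. The 500 ng replicates placed 96.7% and 92.6% of genes within 10 points of each other. At 50 ng 82.3% of genes kept their rank by reads and 77.6% by covered share. Genes without a read share the lowest rank in a library and count as kept where they were also low at 500 ng, which held for 1090 by reads and 1054 by covered share of the 1169 genes without a read in either 5 ng library. Of the 17379 genes with a read in both 5 ng libraries, 44.5% kept their rank by reads and 50.2% by covered share. When the covered share at 5 ng was set against reads per CG at 500 ng, 59.1% kept their rank.

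**Figure D2:**
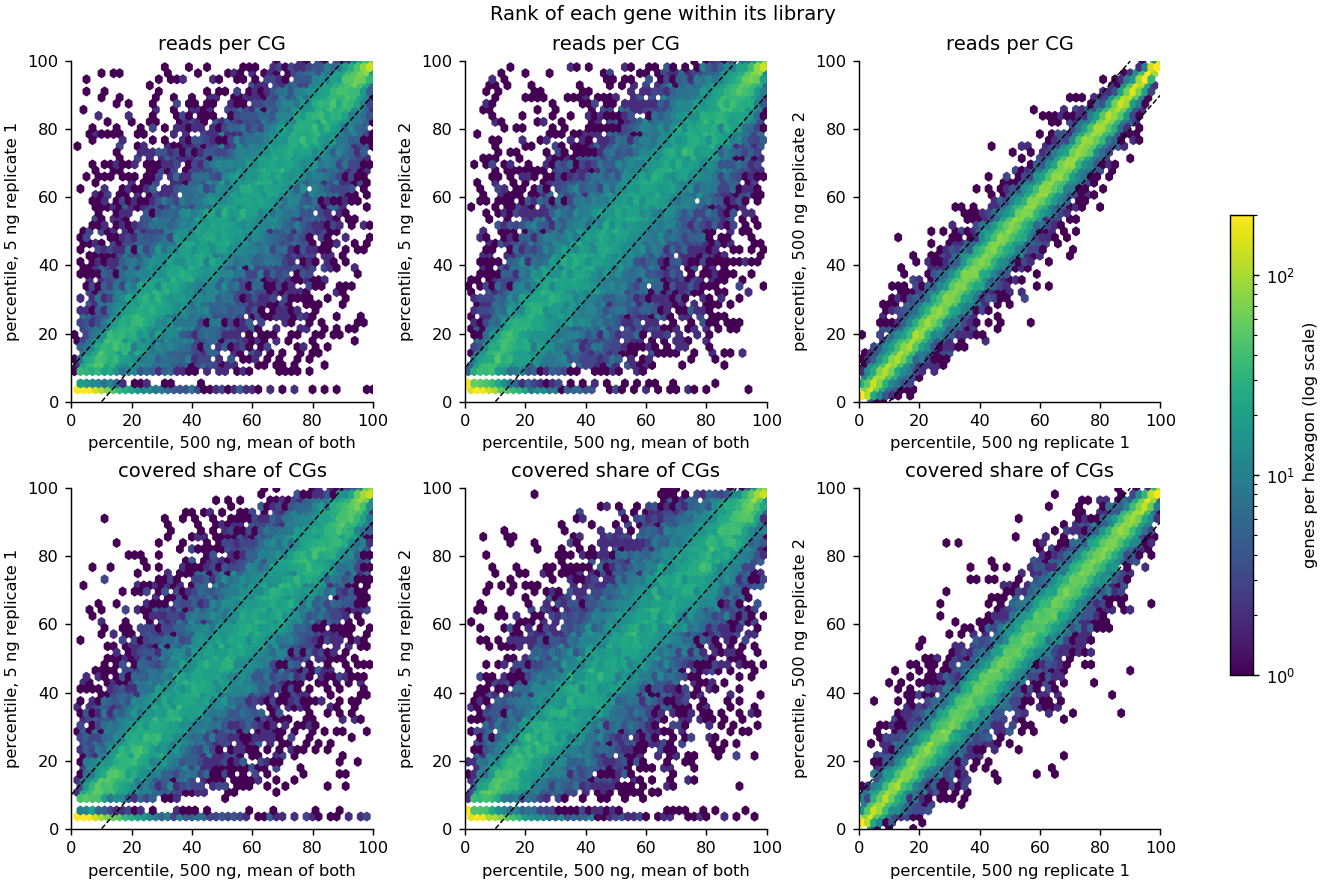
Percentile of each gene within its library, reads per CG above and covered share of CGs below, for each 5 ng library against the mean of the 500 ng libraries and for the 500 ng replicates against each other. Colour gives the number of genes on a log scale, dashed lines mark 10 percentile points, and the row of points at the foot of the 5 ng panels holds genes without a read there, which share 1 rank; 96.7% of genes lie between the lines for the 500 ng replicates by reads and 65.7% and 64.7% for the 5 ng libraries.

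For comparison at equal covered CGs, each 500 ng library was reduced at random to the mean number of covered autosomal CGs at 5 ng, which left 1473580 and 1453172 reads (4.59% and 4.60%), far fewer than at 5 ng, and was then ranked against the other, complete 500 ng library. By covered share 71.7% of genes stayed within 10 points, compared with 67.0% for a 5 ng library. By reads per CG 79.7% did, compared with 64.8%. The replicates of the reduced libraries differed by 1.07 times the counting error in reads, and those of the complete 500 ng libraries by 2.60 times. The 5 ng replicates differed by 24.8 times (the summed squared difference between replicates, scaled to equal totals, over that of Poisson counts). Where replicates differ beyond counting, this ratio grows with the number of reads. The reduced libraries held far fewer reads than those at 5 ng. In covered CGs the ratio was 0.916 at 5 ng, 0.759 for the reduced and 0.397 for the complete 500 ng libraries. A CG is covered at most once in a library, so this ratio can lie below 1. The reduction matched the libraries in covered CGs and not in reads, so these ratios cannot show in which measure the 5 ng replicates were nearer to the reduced libraries.

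The top and the bottom of the ranking were the best preserved. Of the 10% of genes highest at 500 ng by reads per CG, 67.8% and 66.2% were in the highest 10% at 5 ng, 49.0% in both libraries. Of the lowest 10%, 71.8% and 73.4% remained lowest. Among the highest genes 24 and 25 fell below the median at 5 ng, and among the lowest 33 and 33 rose above it. By quintiles of the 500 ng level (groups of equal gene number), 67.0% of the lowest, 31.6% of the middle and 61.9% of the highest genes kept their rank by reads. The lowest genes include those without a read, which share a rank at 5 ng. Percentiles are bounded at both ends, which leaves genes there less room to move.

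The share of genes that kept their rank rose with gene length and, from the second quintile on, with CG number. From the shortest quintile of genes, with a median of 4012 bp, to the longest, with a median of 115354 bp, the share that kept its rank rose from 38.0% to 71.0% by reads and from 40% to 78.2% by covered share. The first 3 quintiles, up to 27630 bp, lay between 38.0% and 40.4% by reads, so most of the rise came in the longer genes. By quintiles of CG number the share by reads was 44.1%, 32.6%, 38.1%, 48.0% and 73.6%. In finer classes, genes with 100 to 199 CGs kept their rank in 33.2% of cases by reads, those with 400 to 799 in 51.6%, and those with at least 1600 in 86.8%. By covered share the same classes reached 38.3%, 59.0% and 91.1%. Behind these values stood a median of 106 and 107 reads on 9 covered CGs per gene at 100 to 199 CGs, and of 1939 reads on 157 and 154 covered CGs at 1600 or more. Genes with 20 to 49 CGs went against the trend with 52.4%, and their median was 0 reads in both 5 ng libraries, the shared lowest rank.

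Length and CG number rise together, and classes of CG number narrowed but did not remove this. Within the middle quintile by CG number (192 to 335 CGs), 40.2% of the shortest genes and 39.8% of the longest kept their rank by reads. The low between them was 31.8%. By covered share 39.7% of the shortest and 50.5% of the longest did, whose median CG number was 227 and 286. Within the highest quintile (from 669 CGs) the share by reads was 69.0% in the shortest and 87.7% in the longest. Their median CG number was 784 and 3144, so that length and CG number cannot be told apart there. By covered share the same classes gave 70% and 94.6%.

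By the share of genes that kept their rank, CG density showed no single direction. The sparsest quintile of genes (median 5.83 CGs per kb) kept its rank in 57.9% of cases by reads, the following quintiles in 42.9%, 45.1% and 48.1%, and the densest in 42.3%. The covered share gave 63.2%, 49.9%, 49.6%, 52.5% and 43.6%. Within the quintiles, Spearman's rho between 5 ng and 500 ng rose with density, 0.735, 0.748, 0.803, 0.828 and 0.873 by reads per CG. By covered share it rose from 0.724 to 0.877. The rise was not particular to 5 ng. Between the 500 ng replicates rho rose from 0.946 to 0.990 by reads per CG. A reduced 500 ng library against the other, complete one gave 0.732 in the sparsest and 0.903 in the densest genes by covered share. The sparsest genes thus had the largest share kept and the lowest rho. In that quintile 2826 of 3912 genes reached a mean of 10 reads, against 3642 of 3911 in the densest. Genes without a read share the lowest rank and percentiles are bounded, so low genes count as kept more easily. Among genes with at least 669 CGs, the densest quintile kept its rank best by reads (83.1%), and the sparsest best by covered share (88.8%).

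**Figure D3:**
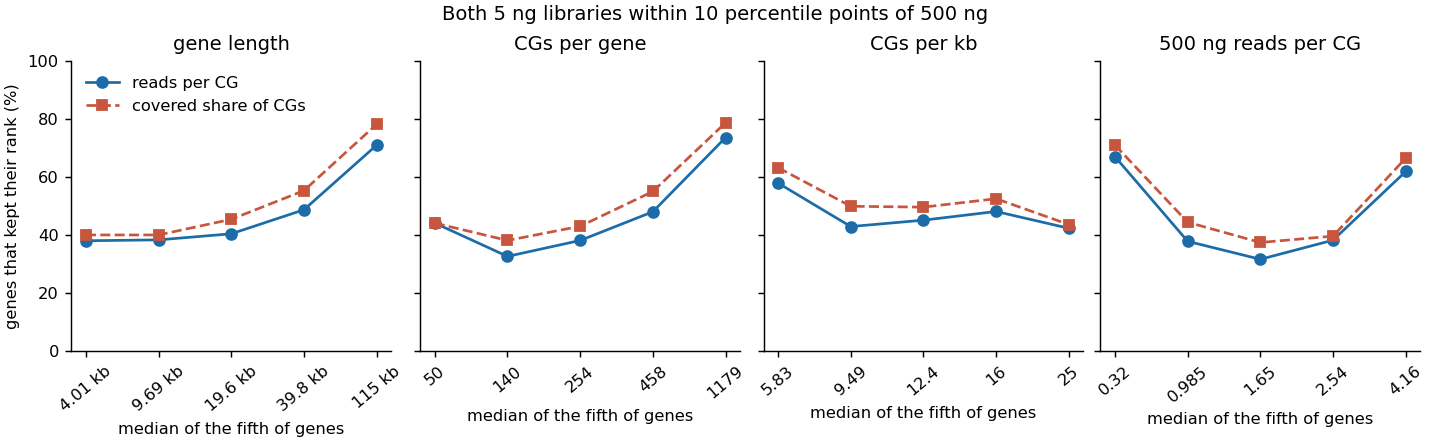
Share of genes (y axis, %) that both 5 ng libraries placed within 10 percentile points of 500 ng, in quintiles of genes by length, by CGs per gene, by CGs per kb and by 500 ng reads per CG (x axis, median of each quintile); circles, reads per CG, squares, covered share. The share rises from 38.0% to 71.0% with length by reads, and is lowest in the middle of the 500 ng levels, at 31.6%.

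The inputs also differed in the balance between CG-poor and CG-rich genes, by a small amount. The sparsest quintile of genes held 8.87% and 8.93% of gene reads at 5 ng and 7.69% and 7.87% at 500 ng. The densest quintile held 12.6% and 12.5% at 5 ng against 13.9% and 13.6%. In both classes the inputs did not overlap, though with 2 libraries each an exact permutation test cannot give a two-sided p below 0.333. The median log2 fold change of 5 ng over 500 ng in reads fell steadily over the quintiles of CG density, 0.19, 0.11, 0.02, -0.06 and -0.13. Along the 500 ng level it fell from 0.24 to -0.11, and along GC content from 0.22 to -0.14. The level is also the denominator of the fold change, and 2386 of the 3912 genes of the lowest level passed the filter on the mean count, so part of the fall along the level is fixed by how the classes were made. GC, CG density and level move together, and their parts in the result were not tested. At 5 ng the highest quintile by level held 1.75 and 1.79 reads per CG and the lowest 0.233 and 0.240, compared with 4.25 and 4.10 and with 0.436 and 0.438 at 500 ng.

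In covered CGs the balance ran the other way. The median log2 fold change rose with CG density from -0.34 to 0.26, and with the 500 ng level from -0.49 to 0.36, where the classes again share the 500 ng libraries with the fold change. The percentage of CGs covered at 500 ng was 60.9% and 62.3% in the highest quintile by level, but 14.0% and 13.6% at 5 ng. With the 500 ng libraries reduced to the same number of covered CGs as at 5 ng, the direction turned to that of the reads, from 0.12 in the sparsest to -0.04 in the densest genes.

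**Figure D4:**
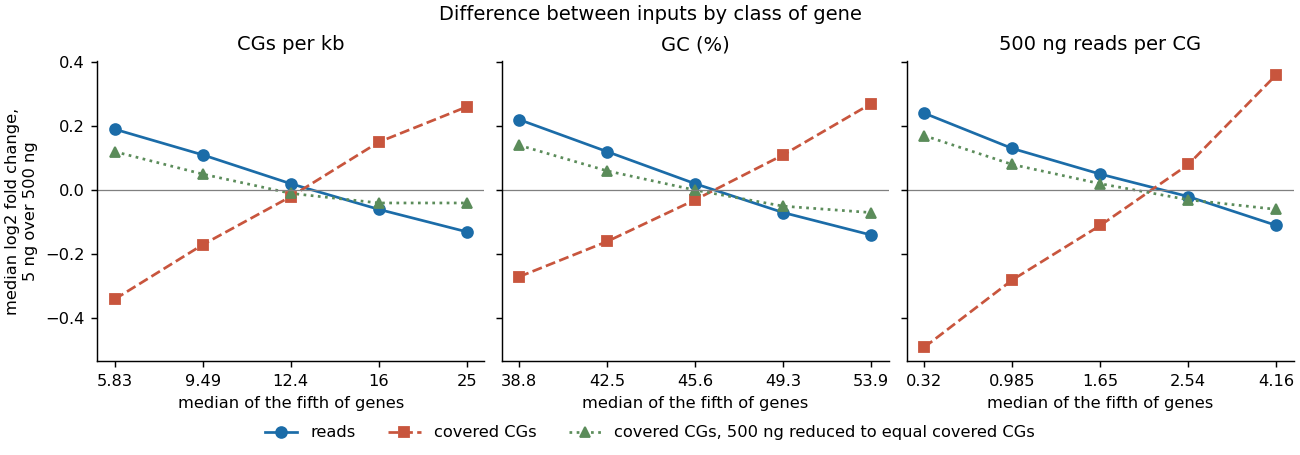
Median log2 fold change of 5 ng over 500 ng (y axis) in quintiles of genes by CGs per kb, by GC content (%) and by 500 ng reads per CG (x axis, median of each quintile), for reads, for covered CGs and for covered CGs after the 500 ng libraries were reduced to equal covered CGs. Reads fall from 0.19 to -0.13 with CG density, covered CGs rise from -0.34 to 0.26, and the reduced libraries give 0.12 to -0.04.

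Gene by gene, no difference in reads passed the test. With edgeR's quasi-likelihood test and Benjamini-Hochberg adjustment, 0 of 18025 genes with a mean of at least 10 reads were called (0%), and the lowest adjusted p was 0.415. At an unadjusted p under 0.05 stood 2087 genes (11.6%), and in 8412 genes (46.7%) the normalized reads of the inputs did not overlap. DESeq2 called 893 genes, 535 higher and 358 lower at 5 ng, limma voom with a weight for each input called 6. The coefficient of variation between replicates that edgeR fitted was 0.460 within 5 ng and 0.0340 within 500 ng, and 0.283 when fitted over both inputs as the test did. Without 5 ng replicate 1 the test called 10362 genes and without replicate 2 10114, since the remaining 5 ng library was then assumed to vary like the 500 ng pair. Without either 500 ng library it called 0.

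The same test on covered CGs called 2349 of 16801 genes (14.0%), 1379 higher (8.21%) and 970 lower (5.77%) at 5 ng relative to the median gene. The covered CGs of the inputs did not overlap in 10522 genes (62.6%). The calls followed the 500 ng level. In its highest quintile 1226 genes were called higher and 1 lower, in the lowest 1 was called higher and 310 lower, and in the one above it 3 were called higher and 445 lower. The counts fell to 943 without 5 ng replicate 1 and to 1060 without 5 ng replicate 2. With 500 ng reduced to equal covered CGs, 2 of 12857 genes were called (0.0156%), with 639 at an unadjusted p under 0.05. They were Gm20388 and Gm21738, named after their values were seen. Gm21738 (chr14:19415857-19418930, 68 CGs), a predicted gene, held 34 and 21 covered CGs at 5 ng and 36 and 30 at 500 ng before reduction. Gm20388 (chr8), the longest gene body of the annotation, spans 4434882 bp and other genes.

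The 8 genes with the most 500 ng reads per CG among those with at least 100 CGs stayed at the top at 5 ng by reads per CG. They were Sfi1, 1600014C10Rik, Ldhd, Klhdc7b, Drg1, Slc11a1, Osm and 4930404N11Rik, and in every library each stood at or above percentile 98.7 by that measure. By covered share Drg1 stood at 52.0 and 52.0 at 500 ng and at 89.9 and 92.6 at 5 ng. Sfi1 (chr11:3131850-3193463), whose product binds centrins at the centrosome, held 12708 and 12849 reads at 5 ng and 26020 and 24859 at 500 ng on 589 CGs. Its covered CGs numbered 332 and 339 against 506 and 516, and its control libraries held 0 and 0 reads at 5 ng and 13 and 11 at 500 ng. At 500 ng Sfi1 held 44.2 and 42.2 reads per CG, against 13.9 and 13.3 in the next gene, 1600014C10Rik. The paper names copy number as a confounder of such read counts. Whether copy number or mapping bears on the level of Sfi1 was not tested. Sfi1 and Drg1, which codes for a GTP-binding protein, overlap on the annotation and share reads there. Osm codes for oncostatin M, a cytokine of the LIF family. Its 113 CGs held 621 and 434 reads at 5 ng and 1123 and 1142 at 500 ng, on 40 and 33 and on 96 and 100 covered CGs. The 5 ng replicates of Osm lay further apart than the 500 ng replicates, and still kept it at percentile 99.8 and 99.4. All 8 genes were called higher at 5 ng in covered CGs, with log2 fold changes from 0.89 to 1.90, against 8.21% over all genes. They were picked for their 500 ng level, which the calls follow. In its highest quintile 1226 of 3897 genes tested were called higher and 1 lower. None of the 8 was called at equal covered CGs, where Ldhd (-0.10), Klhdc7b (-0.17) and Slc11a1 (-0.08) turned direction.

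The steadiest genes were chosen by reads per CG. In each quintile of the 500 ng level the 2 steadiest of the genes with at least 200 CGs were taken, so their steadiness is a description. All of them but Drg1 also kept their rank by covered share. Ptma, which codes for prothymosin alpha, held no read on 248 CGs in either 5 ng library and 14 and 17 reads at 500 ng. By counting alone a count of 0 allows up to 3 reads. At 5 ng a covered CG carried 12.1 and 12.8 reads, so the limit is wider there. Ptma was low at 500 ng, and its rank at 5 ng was the one shared by genes without a read. Msh3, a mismatch repair gene of 1440 CGs, held 778 and 779 reads at 5 ng and 1743 and 1726 at 500 ng, at percentiles 36.7, 36.3, 37.1 and 37.0. Dpf3, a subunit gene of the BAF chromatin remodelling complex with 3034 CGs, held 2846 and 2892 reads at 5 ng and 6420 and 6267 at 500 ng, at percentiles 61.0, 60.8, 60.9 and 60.9. Gfod1 (chr13:43195245-43304172, 1536 CGs) held 1922 and 1964 against 4411 and 4319, at 75.1, 74.8, 74.8 and 75.0. In these 3 genes the 4 libraries differed by less than 1 percentile point. The 5 ng replicates of Msh3 nevertheless shared only 9 of the 128 CGs that either covered, those of Dpf3 42 of 422 and those of Gfod1 40 of 259. The others were Cyp2c66, Ccdc171, Fgfr2, Slc22a14, Sfi1 and Drg1. Fgfr2, a receptor of fibroblast growth factors whose annotated body of 2960900 bp is the second longest, stood between percentile 59.7 and 60.2. That body overlaps other genes and its rank is that of the whole annotated span. Ptprd, a receptor-type tyrosine phosphatase gene and the third longest body, moved from 9.0 and 9.1 at 500 ng to 14.4 and 13.4 at 5 ng.

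Large shifts of rank occurred in both directions. Both 5 ng libraries placed 209 genes more than 20 points above and 337 genes more than 20 points below their 500 ng rank by reads, and in 249 genes the replicates shifted by over 20 points in opposite directions. The genes that moved together had a median of 92 CGs. The examples that follow have at least 200 CGs and were chosen after their values were seen. Mcm8 (chr2:132816141-132844197), which takes part in repair by recombination, held 283 and 302 reads on 24 and 15 covered CGs at 5 ng and 295 and 283 reads on 90 and 89 covered CGs at 500 ng. It rose from percentile 28.2 and 27.0 to 58.5 and 60.9, with a log2 fold change of 1.17 (standard error 0.18, adjusted p = 0.415, edgeR). Of the 36 Mcm8 CGs covered at 5 ng, 3 were covered in both replicates. Shmt1, a serine hydroxymethyltransferase of one-carbon metabolism, held 427 and 472 reads at 5 ng and 491 and 510 at 500 ng. It stood at 85.4 and 88.4 against 54.3 and 56.7. Slc2a8, a glucose transporter gene, held 99 and 88 reads on 12 and 12 covered CGs at 5 ng and 534 and 500 reads on 116 and 113 at 500 ng. It stood at 33.6 and 29.7 against 71.3 and 69.7. Its 5 ng replicates were close in reads, yet they shared 2 of 22 covered CGs.

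Genes lost at 5 ng were few and held few CGs. No read fell in 1659 and 1690 genes at 5 ng and in 477 and 437 at 500 ng. Of 1169 genes empty in both 5 ng libraries, 355 were empty in all 4 and 814 held reads at 500 ng, with a median of 34 CGs. The most reads such a gene held at 500 ng was 61.0 as a mean of the replicates. Ufm1, a ubiquitin-like modifier gene named after its values were seen, held that number with 64 and 58 reads on 28 and 27 covered CGs. By the percentile rule Ufm1 still kept its rank by reads, at 4.2 and 4.3 against 13.2 and 11.8.

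TET and base excision genes followed the general pattern. The list of 16 genes was one of 19 lists, which were drawn up with earlier results of these data known. 6 of the 16 kept their rank by reads and 7 by covered share, against 47.3% and 51.8% of all genes. Tet3, the TET gene expressed in oocytes and many differentiated cells, stood at percentile 82.4 and 78.8 at 5 ng and 81.2 and 79.8 at 500 ng on 1525 CGs. Tet2 stood at 64.4 and 55.6 against 54.6 and 54.5 on 778 CGs. Tdg, the thymine DNA glycosylase gene, stood at 47.7 and 67.4 against 55.9 and 57.2 on 339 CGs. Mbd4, another glycosylase gene, stood at 73.1 and 25.4 against 28.6 and 33.6 on 133 CGs. The spread between the 5 ng replicates thus grew from Tet3 to Mbd4 while the 500 ng replicates stayed within 5 points of each other. In covered CGs Tet1 (log2 fold change 0.39, adjusted p = 0.0018, edgeR) and Ung, the uracil DNA glycosylase gene (0.65, adjusted p = 0.0229), were called higher among 14 tested, at a background of 8.21% higher, and at equal covered CGs neither was.

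Of 9 DNA methyltransferase and cofactor genes, 7 kept their rank by reads and 5 by covered share. Dnmt1, the maintenance methyltransferase gene, held 1385 and 1569 reads at 5 ng and 3681 and 3707 at 500 ng on 925 CGs, at percentiles 83.1, 87.1, 88.1 and 89.5. Dnmt3a, a de novo methyltransferase gene, stood at 84.0, 87.2, 85.9 and 86.1 in the same order. Dnmt3b stood at 57.5 and 69.1 against 60.4 and 66.3, although the CG shown above was all but missed at 5 ng. Zfp57, which codes for a zinc finger protein that protects imprints, stood at 38.2 and 74.6 against 54.7 and 62.7 on 137 CGs. Dnmt3a and Dnmt3l were called higher in covered CGs among 9 tested, with 8.21% higher over all genes. The median log2 fold change of the 9 genes in covered CGs was 0.15, and -0.13 at equal covered CGs.

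Pluripotency genes spanned the whole range of levels. 10 of 22 kept their rank by reads and 8 by covered share, 3 of them by either measure without a read at 5 ng. Esrrb, a nuclear receptor gene of naive pluripotency with 2136 CGs, stood at percentile 85.4 and 91.6 at 5 ng and 88.6 and 89.3 at 500 ng. Sall4, a zinc finger gene of the core network, stood at 93.1 and 90.9 against 93.6 and 92.2. Sox2 lay at the other end, with 122 CGs, no read in either 5 ng library and 1 and 0 reads at 500 ng. Pou5f1, the gene of Oct4, stood at 15.1 and 12.1 against 15.1 and 13.3. Between these extremes ranks were less steady. Nanog, a homeobox gene of the same network, has 90 CGs and held 83 and 117 reads at 5 ng and 167 and 152 at 500 ng. It stood at percentile 60 and 75.7 at 5 ng and at 55.1 and 51.6 at 500 ng. A single CG held 53.0% of its reads in 5 ng replicate 1, 23.1% in replicate 2, and 9.58% and 13.8% at 500 ng. Klf4 stood at 45.1 and 35.4 against 26.3 and 30.2, and its 5 ng replicates shared none of the 17 CGs that either covered.

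LIF and STAT3 signalling genes kept their rank in 10 of 11 cases by reads and in 7 by covered share. Lifr, the LIF receptor gene, stood at 82.8 and 78.4 against 74.6 and 76.4, and Stat3 at 79.8 and 84.9 against 81.1 and 82.6. Pim1, a kinase gene downstream of STAT3, was the exception by reads, at 34.3 and 11.8 against 20.6 and 20.1. Of 23 FGF and ERK signalling genes 14 kept their rank by reads and 12 by covered share, and of 21 WNT signalling genes 11 and 14.

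Polycomb genes, which code for complexes that modify histones at silent developmental genes, kept their rank in 14 of 26 cases by reads and in 11 by covered share. Ezh2, the methyltransferase subunit gene, stood low in all libraries, at 20 and 14.9 against 18.4 and 18.5, with 139 and 87 reads at 5 ng and 316 and 324 at 500 ng. Cbx2, a reader subunit gene, stood high at 95.7 and 95.5 against 95.4 and 95.1. Mtf2, an accessory subunit gene with 253 CGs, stood at 31.2 and 95.3 against 49.7 and 45.7, so the 5 ng replicates fell on opposite sides. In covered CGs 5 genes were called higher (Phc1, Eed, Cbx2, Jarid2 and Cbx7) and none lower among 26 tested, at a background of 8.21% higher. The median log2 fold change of the Polycomb genes in covered CGs was 0.22, and 0.02 at equal covered CGs. For 25 bivalent lineage regulators, Polycomb targets by definition, 11 and 13 kept their rank.

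The Hox genes, homeobox regulators of the body axis, were the list with the highest 500 ng ranks. Their median percentile by reads was 79.3 and 75.9 at 5 ng and 78.1 and 79.5 at 500 ng, and 18 of 39 kept their rank by either measure. Hoxb13 (chr11:96194316-96197447, 75 CGs) stood at 99.9, 99.8, 99.9 and 99.9. Hoxb9, with 160 CGs, stood at 92.3 and 15.4 at 5 ng against 57.8 and 63.9. 11 of 39 were called higher in covered CGs and none lower, in bodies that partly overlap, against 8.21% higher and 5.77% lower over all genes. In the highest quintile of the 500 ng level, 1226 of 3897 genes tested were called higher and 1 lower. The median log2 fold change of the Hox genes in covered CGs was 0.40, and 0.11 at equal covered CGs.

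Short or CG-poor gene families lay near the bottom of the ranking in all libraries. Of 67 replication-dependent histone genes 56 kept their rank by reads and 60 by covered share, with 0.118 and 0.187 reads per CG at 5 ng and 0.400 and 0.388 at 500 ng over the list. Of 79 ribosomal protein genes 41 and 44 did, of 744 olfactory receptor genes 404 and 354, and of 238 vomeronasal receptor genes 151 and 152. Of those kept by reads, 53 histone, 17 ribosomal protein, 279 olfactory and 76 vomeronasal receptor genes held no read in either 5 ng library, so their place was the shared lowest rank and not a measured level. Whether reads were told apart between similar sequences was not tested for these families, so the values of single members are uncertain. Keratin and keratin-associated genes, short as well but at a median percentile of 72.0 and 69.4 at 500 ng, kept their rank in 13 of 64 cases by reads and in 18 by covered share, the lowest share of the 19 lists by either measure except that of 17 germline genes by covered share (3 genes, 6 by reads). Of 385 Zfp zinc finger genes 141 and 177 kept their rank, and of 25 imprinted genes 12 and 12.

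Long genes were the counterpart. Of 339 genes over 400 kb, with a median of 4490 CGs, 312 kept their rank by reads and 329 by covered share. Their summed level was 0.549 and 0.559 reads per CG at 5 ng and 1.16 and 1.14 at 500 ng, and their median percentile rose from 23.8 and 24.1 at 500 ng to 27.8 and 28.9 at 5 ng. In covered CGs 246 of 338 were called lower and 4 higher, against 5.77% and 8.21% over all genes. Their median log2 fold change in covered CGs was -0.34, and 0.09 at equal covered CGs. The 57 clustered protocadherin genes, adhesion genes whose bodies overlap and share reads, went the opposite way, from 69.5 and 69.5 to 64.0 and 62.5. 16 of them kept their rank by reads and 35 by covered share, and their median log2 fold change was -0.31 in reads, compared with 0.01 over all genes tested.

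**Figure D5:**
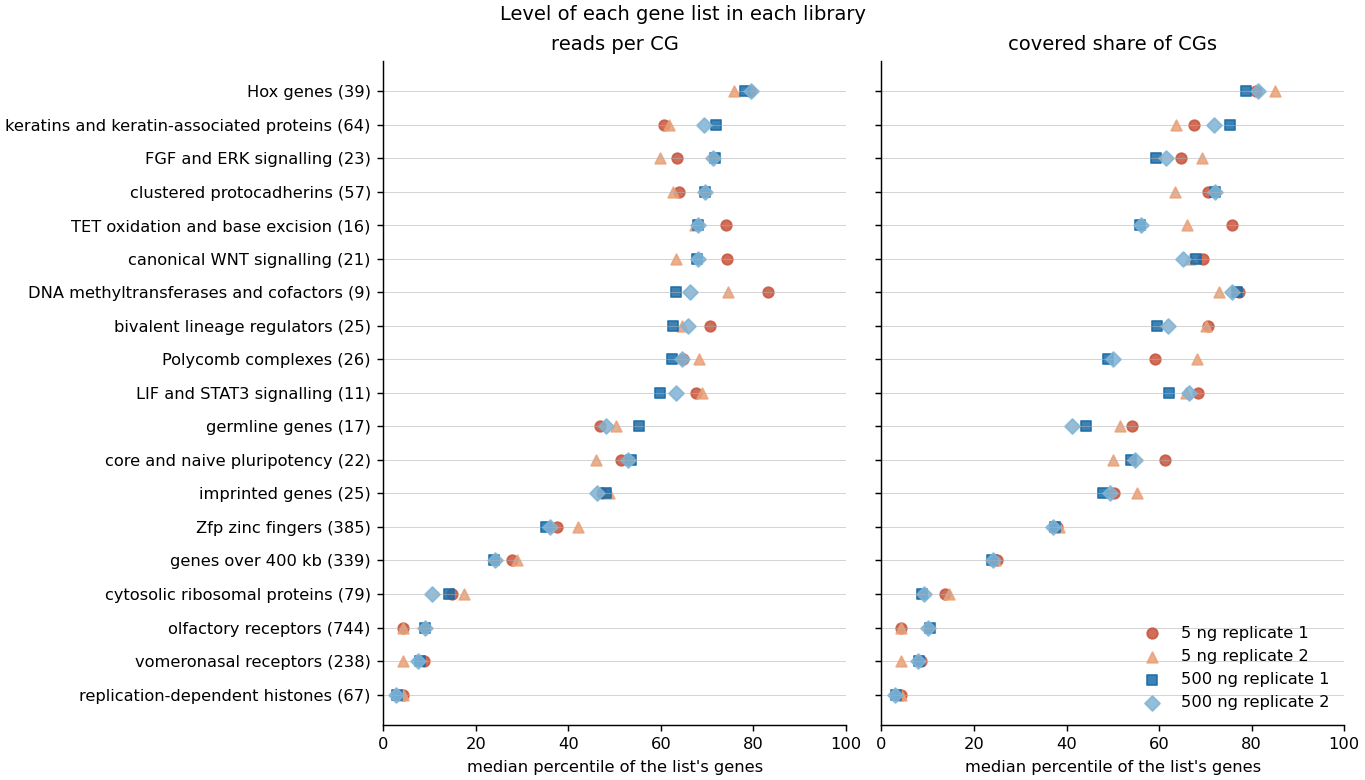
Median percentile (x axis) of the genes of each of 19 lists (y axis, number of ranked genes in brackets) in the 4 libraries, by reads per CG on the left and by covered share of CGs on the right; circles and triangles, 5 ng, squares and diamonds, 500 ng. By reads, histone genes lie between 2.8 and 4.3 in the 4 libraries and Hox genes between 75.9 and 79.5, while the 9 DNA methyltransferase and cofactor genes lie at 83.1 and 74.6 at 5 ng and at 63.3 and 66.3 at 500 ng by reads but at 77.2 and 73.0 and at 76.9 and 75.8 by covered share.

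The control libraries held few reads in total, 3713 and 4723 on autosomes at 5 ng and 9946 and 9225 at 500 ng. With labeling at 5 ng the median gene held 215 and 221 reads. At 5 ng a read fell in 248 and 250 genes without the BGT step and at 500 ng in 2830 and 2764, and the most reads in 1 gene were 88 and 386 at 5 ng and 55 and 64 at 500 ng. Tet1 held no control read at either input. Dnmt1 held 0 and 34 control reads at 5 ng and 2 and 0 at 500 ng, against 1385 and 1569 reads with labeling at 5 ng.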

How the data were processed

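The deposited file lists read counts per CG and library. Per the labels and the study's methods, the authors aligned the reads to mm10, required a mapping quality of at least 30, kept reads that start at a CG and removed duplicates by start coordinate and read length, without molecular identifiers. The aligner is not given in the sources used here. The libraries of unmodified CGs were not used here.

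Read counts and covered CGs (at least 1 read) were summed over autosomal protein-coding gene bodies of GENCODE M21, with overlapping genes sharing their CGs. Genes with at least 20 CGs were ranked. Tests were edgeR 4.0.16 quasi-likelihood fits with TMM factors on genes with a mean of at least 10, at an adjusted p under 0.05, with DESeq2 1.42.0 and limma 3.58.1 voom as alternatives in R 4.3.3. The scripts were tested on simulated data. For the edgeR fit these had the same replicate variation at both inputs, unlike the libraries compared here. Fold changes are 5 ng over 500 ng. Equal covered CGs were reached by random thinning of the 500 ng reads (seed 11).

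The members and lists were chosen with earlier results of these data known. Genes were named by rule as the 8 highest with at least 100 CGs, the 2 steadiest per quintile of level with at least 200 CGs, the 3 longest and list members. A further part of the rule, genes past the test in reads, named none. Other named genes were chosen after their values were seen. Alternatives covered normalization, filters, overlap, gene starts, thinning, rank width, a replicate block and leaving out each library.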

Additional observations from a re-analysis of the deposited data

How the results depend on the processing

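Spearman's rho between 5 ng and 500 ng moved with the processing. Over the alternatives it ran from 0.836 to 0.901 by reads per CG and from 0.874 to 0.905 by covered share. In reads per CG (0.872) it was 0.867 and 0.884 with genes from 1 CG and from 100 CGs, 0.853 without the first 2 kb of genes, 0.836 at equal covered CGs, 0.901 with reads capped at 10 per CG, and 0.870 to 0.874 without 1 library. In the covered share (0.893) it was 0.874, 0.905, 0.894 without overlapping genes, 0.885, 0.902 at equal reads, 0.878, 0.896 for CGs with at least 2 reads, and 0.892 to 0.893. The share of genes that kept their rank by reads (47.3%) was 22.7% within 5 points and 76.8% within 20, 49.1% and 44.5% with genes from 1 CG and from 100 CGs, 48.1% without overlap, 46.3% without the first 2 kb, 44.5% at equal covered CGs, 54.1% capped and 46.7% to 65.7% without 1 library. By covered share (51.8%) it was 25.5%, 81.7%, 53.1%, 49.8%, 54.5% at equal reads, 54.8%, 53.1% from 2 reads, and 50.7% to 68.3%. List members kept their rank in 56.8%, in 31.8% within 5 points and in 77.5% within 20. They did so in 52.5% at equal covered CGs, 59.9% capped and 56.5% to 72.4% without 1 library. The upper ends of these ranges of kept shares came from leaving out a 5 ng library. Then only the other 5 ng library had to lie within 10 points, which is an easier rule. The densest minus the sparsest quintile, -0.32 in log2 fold change of reads, was -0.23 without a filter, -0.11 capped, 0.60 in covered CGs, -0.16 at equal covered CGs and -0.36 to -0.25 without 1 library. Calls in reads (0) were 893 with DESeq2, 6 with voom, 1 capped and 0 to 10362 without 1 library. Calls in covered CGs (2349) were 1522 with DESeq2, 730 at equal reads, 142 for CGs with at least 2 reads, 2 at equal covered CGs and 943 to 2095 without 1 library, and the higher against lower split was 1228 to 1115 without TMM. At equal covered CGs the direction of covered CGs turned in Ldhd (-0.10), Klhdc7b (-0.17), Slc11a1 (-0.08), Gm20388 (-0.08) and Ptprd (0.20), and without the first 2 kb in 4930404N11Rik (-0.03). The cause was not tested. The alternatives for the density classes and for the lists were chosen after seeing the data.

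Replicate numbers did not pair the libraries, with correlations of deviations of -0.00259 in reads and 0.0127 in covered CGs over 2 pairs. With a replicate block 1 gene was called in reads and 2401 in covered CGs.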
